A study of Mus musculus with 6 samples.

Results

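The cytotoxic granule genes are 10 of the 54532 genes in the deposited expression table, taken by their symbols: Gzma, Gzmb, Gzmc, Gzmd, Gzme, Gzmf, Gzmk, Prf1, Srgn and Nkg7. Each symbol matched 1 row. They were measured by RNA sequencing in 6 libraries of mouse T cells from co-culture with ID8, an ovarian cancer line of the mouse. In 3 libraries the ID8 partner had first received cisplatin (40 μM by the labels), and in the 3 control libraries buffer alone. All T cells came from spleens of C57BL/6 mice of 6–8 weeks, were taken with a pan T-cell kit, were activated beforehand on anti-CD3/CD28 beads (72 h), and were kept in 10 ng/mL IL-2. The labels do not say whether the libraries of a group came from separate mice or cultures, so p-values measure only the spread between these samples, which may be technical. The comparison asks how the killing machinery of T cells stood after contact with cisplatin-pretreated tumour cells.

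Killer T cells carry granules that they empty onto a target cell. Perforin (Prf1) opens the target membrane and granzymes, serine proteases, enter and cut proteins inside. Serglycin (Srgn) is the proteoglycan on which granzymes and perforin are packed, and Nkg7 is a granule membrane protein that takes part in their release. Granzyme B is the best known inducer of apoptosis among them, granzymes A and K have trypsin-like activity, and granzymes C to G are rodent relatives of granzyme B that appear late after strong activation with IL-2.

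With cisplatin-pretreated ID8 cells several late granzyme genes were lower and, on the deposited scale but not after centring on T-cell genes, Gzma was higher. On the deposited scale the sum of all granzyme genes overlapped between the groups. That sum was 213 ± 6.03 FPKM (fragments normalised for gene length and library depth; SD, n = 3) against 213 ± 4.01 FPKM in control. Within that sum the late granzymes Gzmc to Gzmg went from 40.5 ± 0.964 to 20.0 ± 1.48 FPKM (SD, n = 3 each), while Gzma went from 29.4 ± 1.15 to 40.3 ± 2.68 FPKM and Gzmb stayed the most abundant, at 142 ± 6.08 and 152 ± 6.14 FPKM. The sum was not recomputed after the centring, where Gzmb, its largest part, had a log2 fold change of -0.50 (limma adjusted p = 1.4e-05). Of the other granule genes, Srgn and Nkg7 were higher and Prf1 slightly lower with cisplatin on the deposited scale. Centring on T-cell genes gave log2 fold changes of -0.85 for Prf1, -0.33 for Nkg7 and -0.04 for Srgn. The centred value of Srgn did not pass the test (limma adjusted p = 0.32).

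The libraries held 30606569 to 32169496 reads on genes, rebuilt from the FPKM. They were not pure T cells, and the mixture differed between the groups. All 16 T-cell identity genes (such as Cd3e, Lck and Trac) were higher with cisplatin, with summed levels of 2243–2308 FPKM against 1383–1486 FPKM. The 12 ID8 tumour cell markers summed to 219–225 FPKM with cisplatin and 1504–1575 FPKM in control, and all 10 of them that were tested fell. B-cell markers (10 of 10 higher, 416–444 against 278–296 FPKM) and myeloid markers (9 higher and 1 lower of 11 tested, 130–150 against 66.3–70.8 FPKM) were present too. Relative to the T-cell genes, 3 of the B-cell markers were higher and 3 lower by limma, and 6 of the myeloid markers higher and 2 lower. By the same test 4.45% of all tested genes were higher and 67.4% lower relative to the T-cell genes. Without that reference the shares were 27.5% and 29.0%. For these bulk libraries, fewer cells of a type and less RNA per cell cannot be told apart. Fold changes are therefore read on both scales: on the FPKM as deposited, and after centring each library on the 16 T-cell identity genes, which lowers every log2 fold change by 0.60 and takes the median of all tested genes from 0.03 to -0.57. The centring assumes that the T-cell genes did not change. Where the text says that a gene rose or fell with no scale named, its direction was the same on both. The ratios of granzymes within a library need neither scale.

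Granzymes B to G lie side by side on the minus strand of chromosome 14, in 145 kb from 56117626 to 56262260 of GRCm38. The 250 bases before the start of Gzmc, the most abundant of the late granzymes, of Gzmd and Gzmf, the members lower by at least 2-fold, and of Gzmb, which did not pass the test, are shown for comparison. They come from RefSeq (GRCm38.p6, minus strand, written 5′ to 3′), in which all 10 genes had an entry. Capitals mark 4 short motifs searched on both strands: AP-1 (TGANTCA), RUNX (ACCACA), T-box (TCACAC) and STAT (TTCNNNGAA). No 2 marked motifs overlap in these windows.
Gzmb, chr14:56262335-56262584: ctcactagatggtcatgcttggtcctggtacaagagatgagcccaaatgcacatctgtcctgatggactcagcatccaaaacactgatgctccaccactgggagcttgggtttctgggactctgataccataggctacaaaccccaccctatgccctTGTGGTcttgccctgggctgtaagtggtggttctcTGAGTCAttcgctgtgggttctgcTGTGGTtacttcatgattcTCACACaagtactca
Gzmc, chr14:56234658-56234907: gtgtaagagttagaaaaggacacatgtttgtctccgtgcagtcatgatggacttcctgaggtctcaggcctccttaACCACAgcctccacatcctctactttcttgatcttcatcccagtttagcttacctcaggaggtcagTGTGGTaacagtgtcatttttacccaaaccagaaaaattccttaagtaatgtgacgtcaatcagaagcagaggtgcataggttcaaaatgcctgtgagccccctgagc
Gzmd, chr14:56132594-56132843: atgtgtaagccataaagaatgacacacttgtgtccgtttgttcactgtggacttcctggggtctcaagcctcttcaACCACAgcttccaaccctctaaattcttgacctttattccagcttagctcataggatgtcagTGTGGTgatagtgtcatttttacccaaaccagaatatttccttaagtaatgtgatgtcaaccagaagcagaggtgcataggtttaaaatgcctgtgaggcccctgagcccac
Gzmf, chr14:56211408-56211657: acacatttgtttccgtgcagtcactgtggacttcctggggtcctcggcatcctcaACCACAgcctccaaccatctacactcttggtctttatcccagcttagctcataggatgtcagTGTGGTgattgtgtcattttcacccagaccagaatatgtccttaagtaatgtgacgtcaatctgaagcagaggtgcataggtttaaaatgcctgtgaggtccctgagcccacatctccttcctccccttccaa
The upstream regions of the late granzymes are close copies. Those of Gzmc, Gzmd and Gzmf were identical at 84.4% (Gzmc and Gzmd), 85.8% (Gzmc and Gzmf) and 88.2% (Gzmd and Gzmf) of aligned bases, and those of Gzmd and Gzme at 95.6%. Against Gzmb the aligned bases of the same 3 were identical at 62.0%, 62.7% and 62.9%, over 184, 185 and 170 aligned bases. Granzyme pairs from different chromosomes ranged from 54.5% (Gzma and Gzme) to 62.4% (Gzma and Gzmf), so values near 62% do not mark a close copy. Each of the 3 windows held 1 RUNX motif on the plus strand of the gene and 1 on the minus strand, at 174 to 169 and 108 to 103 bases before the start in Gzmc. The windows of Gzme and Gzmg held the same pair, at 175 to 170 and 113 to 108 bases in Gzme. Gzme did not pass the test on the deposited scale, so the pair was not particular to the genes that fell. The window of Gzmb held 2 RUNX motifs, both on the other strand (93 to 88 and 34 to 29 bases before the start), an AP-1 motif (58 to 52 bases) and a T-box motif (15 to 10 bases). All these positions count from the RefSeq start. The Gzmb window stops at 56262335, upstream of the gene's outer end in the expression table (56262260). That of Gzmc stops at 56234658, beside its outer end at 56234656. Those of Gzmd and Gzmf stop at 56132594 and 56211408, inside the genes, whose outer ends lie at 56132608 and 56211417. Positions in Gzmb, Gzmd and Gzmf are therefore not counted from a point equivalent to that of Gzmc. Of 32851 RefSeq promoter windows of this length, 14.05% held the RUNX letters, 6.75% the AP-1 letters, 12.3% the T-box letters and 7.02% the STAT letters. These matches describe the sequence only.

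**Figure D1:**
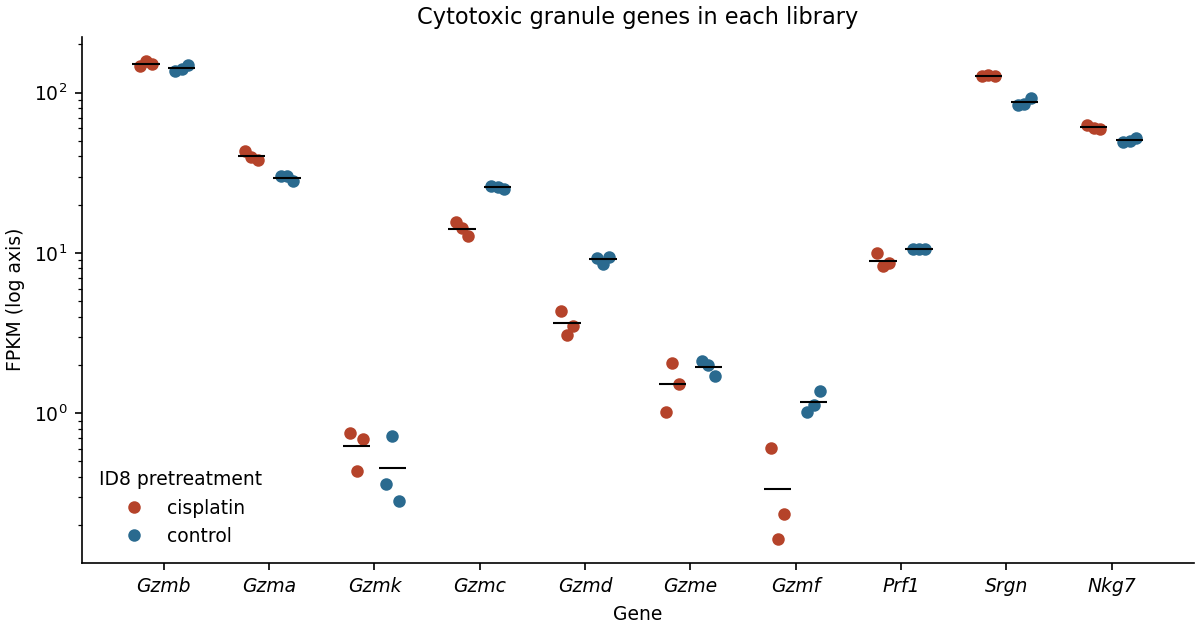
FPKM (log axis) of the 10 cytotoxic granule genes in each of the 3 cisplatin and 3 control libraries, with 1 point per library and a bar at the mean. Srgn, Nkg7 and Gzma lay higher with cisplatin in all 3 libraries on this scale (not after centring on T-cell genes), Gzmc, Gzmd, Gzmf and Prf1 lower, and Gzmb, Gzme and Gzmk overlapped.

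All 10 genes passed the filter on low values (average of 0.5 FPKM or more across libraries), Gzmf and Gzmk narrowly. By limma on log2(FPKM + 0.1), 3 of the 10 were higher and 4 lower with cisplatin at an adjusted p-value (Benjamini-Hochberg, all tested genes) below 0.05, and 3 did not pass. Log2FC below stands for the log2 of the ratio of cisplatin to control on that scale. Over all 15874 genes tested, 27.5% were higher and 29.0% lower by the same rule, so the members' counts were close to the background. With a fold change of at least 2 in addition, 0 members were higher and 2 (Gzmd and Gzmf) lower, where 4.11% and 12.8% of all tested genes were higher and lower. The libraries of the groups did not overlap for 7 of the 10, against 64.2% of all tested genes. The median log2 fold change of the members was -0.08, beside 0.03 over all tested genes. With each library centred on its T-cell genes, 0 members were higher and 7 lower by limma at an adjusted p-value under 0.05, beside 4.45% higher and 67.4% lower over all tested genes, so the 7 of 10 lower was again close to the background. At a fold change of at least 2, 3 members were lower on that scale, beside 24.4% of all tested genes. The median of the members was then -0.67, beside -0.57 over all tested genes.

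Granzyme B (Gzmb, ENSMUSG00000015437, chromosome 14 from 56258838 to 56262260) had 147, 159 and 150 FPKM in the cisplatin libraries and 137, 141 and 149 FPKM in the control libraries. The groups overlapped, with control replicate 3 above cisplatin replicate 1. The log2FC was 0.09 with a 95% confidence interval of -0.01 to 0.20 (limma adjusted p = 0.12). It was 0.18 (adjusted p = 0.000395) with limma's voom on the rebuilt reads, and -0.50 (limma adjusted p = 1.4e-05) after the centring. The direction of the Gzmb difference thus depended on the scaling. The tested genes with the most similar profile over the 6 libraries were Zfp553, Tor4a and AW112010, at distances of 0.052, 0.053 and 0.055 on the centred log2 scale among 8415 candidates.

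Granzyme A (Gzma, ENSMUSG00000023132, chromosome 13 from 113093825 to 113100981) had 43.2, 39.9 and 37.8 FPKM with cisplatin and 30.1, 30.1 and 28.1 FPKM in control. All 3 cisplatin libraries lay above all control libraries. It rose by a log2FC of 0.45 (standard error 0.06, limma adjusted p = 0.00055) on the deposited scale, which became -0.15 (limma adjusted p = 0.087) after the centring. Granzyme K (Gzmk, ENSMUSG00000042385, chromosome 13 from 113171608 to 113225908) was near the detection limit, with 34, 20 and 31 rebuilt reads with cisplatin and 15, 30 and 12 in control. Its levels were 0.756, 0.434 and 0.689 FPKM against 0.360, 0.720 and 0.282 FPKM and overlapped. Its log2FC was 0.44 with a 95% confidence interval of -0.52 to 1.41 (limma adjusted p = 0.39), and -0.16 after the centring, so a change of this gene was not detectable at this depth. Its annotated span overlaps Esm1 on the opposite strand, which had 0.073 FPKM on average.

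Of the late granzymes among the members, Gzmc, Gzmd and Gzmf fell and Gzme did not pass the test. Granzyme C (Gzmc, ENSMUSG00000079186, chromosome 14 from 56231441 to 56234656), the most abundant of them, had 15.6, 14.3 and 12.7 FPKM with cisplatin and 26.3, 25.9 and 25.2 FPKM in control. The groups were well separated, and its log2FC was -0.86 (standard error 0.07, limma adjusted p = 8.1e-05), under the 2-fold mark on the deposited scale and past it, at -1.46, after the centring. Granzyme D (Gzmd, ENSMUSG00000059256, chromosome 14 from 56129556 to 56132608) had 4.33, 3.07 and 3.52 FPKM against 9.36, 8.58 and 9.47 FPKM. It fell 2.49-fold (log2FC -1.32, standard error 0.12, limma adjusted p = 0.00014, and -1.92 after the centring), and was called under each alternative tried.

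Granzyme F (Gzmf, ENSMUSG00000015441, chromosome 14 from 56205263 to 56211417) rested on few reads, 18, 5 and 7 with cisplatin and 28, 31 and 39 in control. These correspond to 0.605, 0.164 and 0.235 FPKM and 1.01, 1.13 and 1.38 FPKM, without overlap. Its log2FC was -1.67 (standard error 0.41, limma adjusted p = 0.012), but -0.71 (adjusted p = 0.0070) with a pseudocount of 1, where it was no longer called, and -2.27 after the centring. The gene passed the filter through its control level, and lies across the antisense gene Gm4022, which had 0.026 FPKM. Granzyme E (Gzme, ENSMUSG00000022156, chromosome 14 from 56117626 to 56120625) overlapped, with 1.01, 2.04 and 1.52 FPKM against 2.11, 2.003 and 1.71 FPKM. Its log2FC was -0.38 with a 95% confidence interval of -0.97 to 0.22 (limma adjusted p = 0.24), and -0.97 (limma adjusted p = 0.0092) after the centring. Granzyme G (Gzmg), the remaining late granzyme with reads and not among the 10, had 0, 10 and 16 reads against 76, 71 and 58, and a log2FC of -3.09 (limma adjusted p = 0.0073), or -3.68 after the centring. It passed the filter through its control level (0.292 ± 0.274 against 2.49 ± 0.367 FPKM), and the size of this value depended on the settings: it was -1.45 with a pseudocount of 1, -4.33 with 0.01, and -2.29 without cisplatin replicate 1, the library at 0. Gzmn, also in the cluster, was listed at 0 in each library.

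Reads can be shared among these genes. The longest transcripts of Gzmd and Gzme were identical at 94.8% of aligned bases, those of Gzmd and Gzmg at 90.5%, and those of Gzmc and Gzmd at 75.8%. Of all windows of 50 bases in the transcript, 21.9% in Gzmd, 20.6% in Gzme, 19.8% in Gzmg, 7.36% in Gzmf and 4.14% in Gzmc also occurred in a transcript of another gene. The share was 0% for Gzma, Gzmb, Gzmk, Prf1, Srgn and Nkg7. How the authors counted reads that match several genes is not given in the sources used here, so the split among Gzmd, Gzme, Gzmf and Gzmg is uncertain. Their sum with Gzmc depends less on that split, though it would still move with reads dropped or counted for several genes. It was 21.5, 19.9 and 18.5 FPKM with cisplatin and 41.6, 40.2 and 39.8 FPKM in control, 2.03-fold lower (two-sided exact permutation test, p = 0.1, below which 3 libraries against 3 cannot go).

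**Figure D2:**
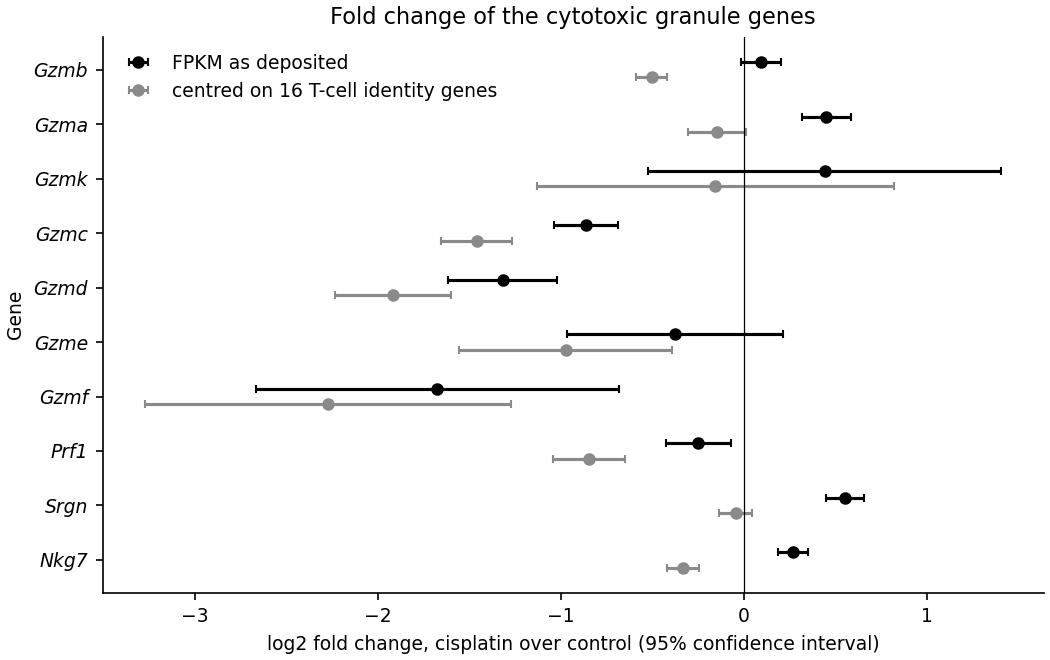
Log2 fold change (cisplatin over control, horizontal axis) of the 10 granule genes with 95% confidence intervals from limma, on the FPKM as deposited (black) and after centring each library on 16 T-cell identity genes (grey). Gzmc, Gzmd, Gzme, Gzmf and Prf1 lie below 0 on both scales, and Gzma, Gzmb, Gzmk, Srgn and Nkg7 lie above 0 as deposited and below 0 after the centring. The intervals of Gzmb, Gzme and Gzmk as deposited, and of Gzma, Gzmk and Srgn after the centring, include 0.

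As shares of the summed granzyme FPKM in each library, a measure that needs no scaling between libraries, Gzmb took 68.9%, 72.2% and 72.4% with cisplatin and 65.4%, 66.4% and 68.5% in control. Gzma took 20.3%, 18.2% and 18.2% against 14.4%, 14.2% and 12.9%. The shares of both were higher in all 3 cisplatin libraries. Gzmc took 7.32%, 6.50% and 6.14% against 12.6%, 12.2% and 11.6%, and Gzmd 2.04%, 1.40% and 1.70% against 4.48%, 4.05% and 4.36%. The late granzymes Gzmc to Gzmg together made up 9.37 ± 0.645% with cisplatin and 19.1 ± 0.789% in control (SD, n = 3 each). For each of Gzma, Gzmb, Gzmc, Gzmd, Gzmf and Gzmg the groups were apart (exact permutation test, two-sided, p = 0.1, the smallest possible, and 0.15 after adjustment over the 9 shares tested), so no share could pass 0.05 in this design. The shares of Gzme, Gzmk and Gzmm overlapped. Because the shares of a library add up to the whole, they are not independent. A lower share of the late granzymes by itself raises the others, and Gzmb overlapped between the groups in FPKM.

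**Figure D3:**
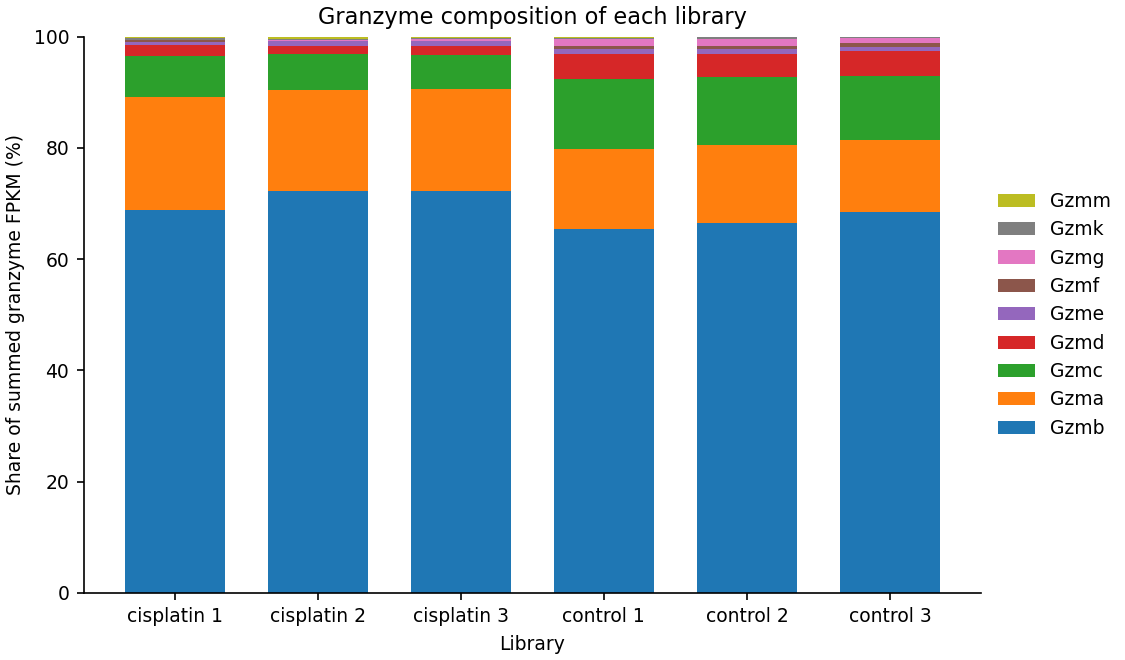
Share of each granzyme in the summed granzyme FPKM (vertical axis, percent) of each library, stacked, with the 3 cisplatin libraries on the left. Gzmc and Gzmd are narrower and Gzma wider in the cisplatin libraries, and Gzmb is 65.4% to 72.4% of every bar.

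Perforin (Prf1, ENSMUSG00000037202, chromosome 10 from 61297833 to 61304680), the pore-forming protein, had 9.97, 8.26 and 8.61 FPKM with cisplatin and 10.6 FPKM in each control library. The cisplatin libraries lay below control without overlap. The log2FC of -0.25 (standard error 0.07, 95% confidence interval -0.43 to -0.07) passed the test narrowly (limma adjusted p = 0.027). It did not pass after quantile normalization (-0.13, limma adjusted p = 0.20), with voom on the rebuilt reads (-0.17, limma adjusted p = 0.10), or without cisplatin replicate 2 or 3 or any of the control replicates (limma adjusted p = 0.066 to 0.081), and was -0.85 (limma adjusted p = 8.3e-05) after the centring. Per 100 FPKM of Gzmb in the same library, Prf1 had 6.80, 5.21 and 5.73 FPKM with cisplatin and 7.75, 7.52 and 7.13 FPKM in control. The tested genes nearest to Prf1 in profile were Frrs1, Ulk2 and Washc3, at distances of 0.079, 0.089 and 0.091 among the same 8415 candidates.

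Serglycin (Srgn, ENSMUSG00000020077, chromosome 10 from 62493833 to 62527451), which many blood cell types besides T cells also express, had 127, 129 and 127 FPKM with cisplatin and 83.7, 84.5 and 92.8 FPKM in control. The lowest cisplatin library was well above the highest control library. It rose 1.47-fold (log2FC 0.55, standard error 0.04, limma adjusted p = 6.2e-05) on the deposited scale, which is -0.04 (95% confidence interval -0.13 to 0.05, limma adjusted p = 0.32) after the centring. The myeloid and B-cell markers, whose cells express serglycin too, were also higher on the deposited scale, and their part in this rise was not tested. Nkg7 (ENSMUSG00000004612, chromosome 7 from 43437073 to 43438249) had 62.5, 60.6 and 59.2 FPKM with cisplatin and 49.6, 49.8 and 52.0 FPKM in control. It rose on the deposited scale by a log2FC of 0.27 (standard error 0.03, limma adjusted p = 0.00066), and fell after the centring by 0.33 on the log2 scale (limma adjusted p = 0.00016). Per 100 FPKM of Gzmb, Srgn had 84.2 ± 2.96 FPKM against 61.2 ± 1.19 FPKM and Nkg7 40.1 ± 2.30 FPKM against 35.5 ± 0.671 FPKM (SD, n = 3 each). Neither ratio overlapped between the groups (two-sided exact permutation test, p = 0.1, the smallest possible, and 0.13 after adjustment over the 9 ratios tested).

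In order of mean FPKM with cisplatin the genes stood as Gzmb, Srgn, Nkg7, Gzma, Gzmc, Prf1, Gzmd, Gzme, Gzmk and Gzmf. Neighbours in this order did not overlap in their cisplatin libraries, except that Gzmk overlapped Gzmf. In control, the order of the last pair was reversed (Gzmf 1.17 ± 0.189 FPKM and Gzmk 0.454 ± 0.234 FPKM; SD, n = 3 each).

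The late granzymes share their stretch of chromosome 14 with the mast cell proteases, and this neighbourhood was looked at after its values were seen. From Cma1 to Gzmb, 321 kb, there are 26 annotated genes, of which 13 were tested. On the side away from Gzmb, the mast cell chymases and their relatives rose: Mcpt1 (9.36 ± 1.15 against 2.94 ± 0.273 FPKM, log2FC 1.64, limma adjusted p = 2.6e-05, and 1.04 after the centring), Mcpt4 (log2FC 1.84, limma adjusted p = 0.00032, and 1.25 after the centring), Mcpt2 (log2FC 1.18, limma adjusted p = 0.0060), Cma1 (log2FC 0.72, limma adjusted p = 0.0063) and Ctsg, cathepsin G of neutrophils and mast cells (log2FC 2.72, limma adjusted p = 0.0038, and 2.12 after the centring). Ctsg passed the filter through its cisplatin level (2.69 ± 0.106 against 0.418 ± 0.421 FPKM), and its log2FC ran from 1.42 with a pseudocount of 1 to 3.34 without control replicate 2. Cma1 and Mcpt2 no longer passed after the centring (log2FC values of 0.12 and 0.58). Mcpt8, a basophil protease, had a log2FC of 0.63 (limma adjusted p = 0.070, and 0.03 after the centring). Along the interval the log2FC was thus above 0 from Cma1 to Ctsg, except for the pseudogene Gm5801 (-0.07), and below 0 from Gzme to Gzmc. Whether reads are shared among the mast cell proteases was not tested. Of the 6 mast cell markers, which include Mcpt4 and Cma1, 4 of the 5 tested rose on the deposited scale, 3 rose and 1 fell relative to the T-cell genes, and the 6 summed to 29.6–34.1 FPKM with cisplatin against 12.2–16.1 FPKM in control. Their part in the proteases' rise was not tested. Over all tested genes, 27.5% were higher and 29.0% lower on the deposited scale, and 4.45% and 67.4% after the centring.

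**Figure D4:**
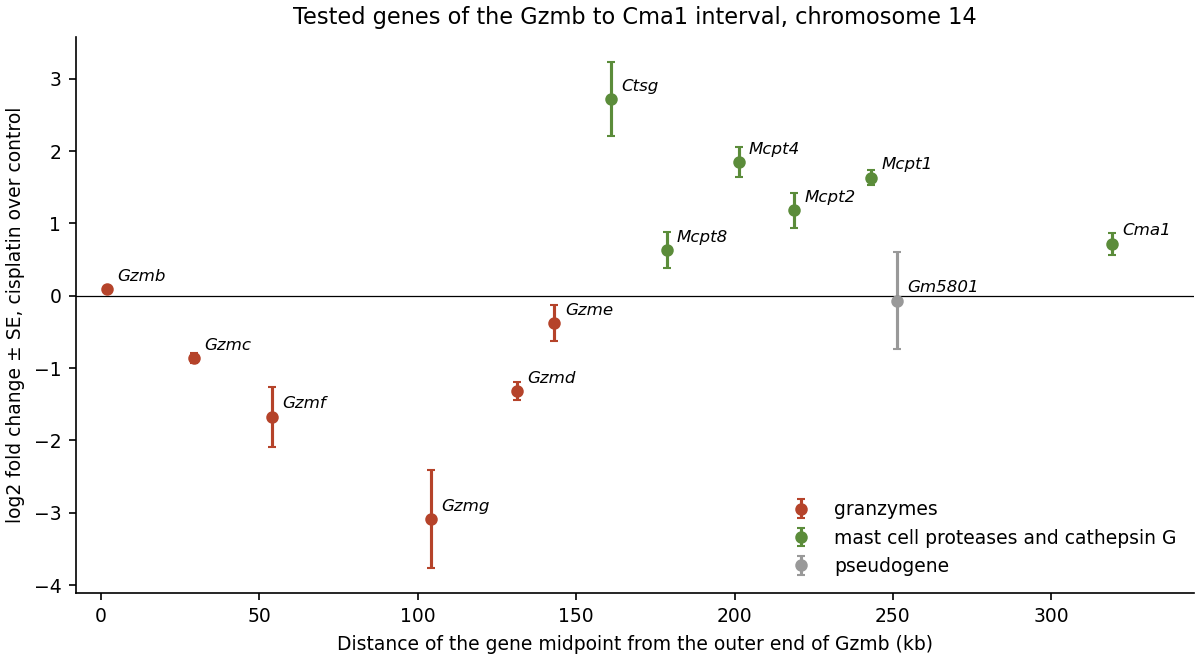
Log2 fold change with its standard error (vertical axis) of the 13 tested genes from Gzmb to Cma1 against the distance of the gene midpoint from the outer end of Gzmb (kb). Granzymes C to G lie below 0 (Gzme did not pass the test), and the mast cell proteases and cathepsin G on the far side lie between 0.63 and 2.72 on the deposited scale.

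Cells other than T cells can also carry granzymes and perforin. Of the 6 natural killer cell markers, 5 were tested and 0 passed by limma in either direction, with 10.7–12.9 FPKM summed in the cisplatin and 9.60–10.3 FPKM in the control libraries. After the centring 2 of the 5, Klra4 (-0.51) and Klrb1f (-0.79), were lower by limma (adjusted p = 0.0014 and 0.015). Over all tested genes, 27.5% were higher and 29.0% lower on the deposited scale, and 4.45% and 67.4% after the centring. On the deposited scale the CD8 chains Cd8a and Cd8b1 had a median log2FC of 0.41, and Cd4 of 0.41. After the centring these were -0.18 and -0.19. Cd8a, Cd8b1 and Cd4 were each lower on that scale (limma adjusted p = 0.0020, 0.0010 and 0.0036). The fold changes of the CD8 and CD4 chains were thus close to each other. The part of the B-cell, myeloid and tumour transcripts in the levels of the granule genes was not tested.

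Around the granule genes, lists of the machinery that makes, moves and restrains them were read in the same fit. Their counts stand beside the shares of all tested genes. Those shares were 27.5% higher and 29.0% lower on the deposited scale, and 4.45% higher and 67.4% lower after the centring. Of 7 genes for the maturation and sorting of granzymes, 4 were higher and 2 lower on the deposited scale, and 2 higher and 4 lower after the centring (median log2FC 0.13 and -0.47). Ctsc, the protease that activates granzymes by removing a dipeptide, rose from 15.3 ± 0.679 to 30.7 ± 0.494 FPKM (log2FC 0.999, limma adjusted p = 3.2e-06, and 0.40 after the centring). Cst7, cystatin F, an inhibitor of that protease, rose from 36.7 ± 0.509 to 69.6 ± 3.81 FPKM (log2FC 0.92, limma adjusted p = 5.5e-06, and 0.32 after the centring). Ctsl, a lysosomal protease, fell from 23.3 ± 0.370 to 16.02 ± 0.356 FPKM (SD, n = 3 each; log2FC -0.54, and -1.14 after the centring). The myeloid markers, whose cells also express Ctsc and Cst7, had a median log2FC of 1.35 (0.75 after the centring), and their part in these rises was not tested. That median includes C1qa, Fcgr1 and Adgre1, which were tested only through their cisplatin level.

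Of 12 genes for granule movement and release, 3 were higher and 7 lower on the deposited scale, beside 27.5% and 29.0% of all tested genes. After the centring 0 were higher and 11 lower by limma, beside 4.45% and 67.4% of all tested genes. Unc13d alone did not pass on that scale. The priming factor Unc13d and the granule GTPase Rab27a had log2FC values of 0.53 and 0.41 (limma adjusted p = 0.00044 and 0.00042), which were -0.07 and -0.19 after the centring. Vamp8, a vesicle fusion protein found in many cell types, fell from 47.9 ± 3.07 to 23.1 ± 2.85 FPKM, and Sytl2, a Rab27 effector, from 4.02 ± 0.377 to 1.47 ± 0.0748 FPKM (log2FC values of -1.06 and -1.39, limma adjusted p = 9.9e-05 and 4.1e-05, and -1.65 and -1.99 after the centring). Of 5 serpins of the granzyme inhibitor families, 1 was higher and 3 lower on the deposited scale, and 1 higher and 4 lower after the centring. Serpinb9, the inhibitor of granzyme B, fell from 26.3 ± 0.239 to 17.9 ± 0.195 FPKM, and Serpinb6b from 83.7 ± 2.38 to 34.5 ± 0.837 FPKM (log2FC values of -0.55 and -1.28, limma adjusted p = 9.9e-06 and 4.7e-07, and -1.15 and -1.87 after the centring). Serpinb6a fell by 1.11 on the log2 scale, and by 1.70 after the centring, and Serpina3g, an intracellular inhibitor of cathepsins, rose by a log2FC of 1.18 (limma adjusted p = 4.0e-07, and 0.58 after the centring). The ID8 markers (median log2FC -2.41) fell alongside the late granzymes and the release genes and serpins that fell, and their part in those falls was not tested. The death ligand Tnfsf10 (TRAIL) had a log2FC of 0.44 (limma adjusted p = 0.0014, -0.16 after the centring), and Fasl, the other ligand, of 0.19 (limma adjusted p = 0.23, and -0.41 after the centring).

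Of 11 transcription factors that set the killer or memory programme, 6 were higher and 3 lower on the deposited scale. The shares of all tested genes there were 27.5% and 29.0%. After the centring 1 (Eomes) was higher and 6 lower, beside 4.45% and 67.4% of all tested genes. Eomes, a T-box factor of memory and killer cells, rose from 1.33 ± 0.159 to 2.86 ± 0.0558 FPKM (log2FC 1.05, limma adjusted p = 0.00030, and 0.46 after the centring). Tbx21, the other T-box factor, and Runx3 had log2FC values of 0.59 and 0.23 (limma adjusted p = 0.00052 and 0.0026) that were -0.01 and -0.37 after the centring. Tcf7, the factor of naive and memory T cells, had 501.4 ± 9.21 against 318 ± 5.02 FPKM, a log2FC of 0.66 (limma adjusted p = 4.6e-06) and of 0.06 (limma adjusted p = 0.12) after the centring. Bhlhe40 and Nfil3, known as factors induced by activation in T cells, fell from 91.1 ± 3.93 to 43.4 ± 0.369 FPKM and from 31.8 ± 1.56 to 11.6 ± 1.005 FPKM (log2FC values of -1.07 and -1.45, limma adjusted p = 1.3e-06 and 5.7e-06, and -1.67 and -2.05 after the centring). Here too the ID8 markers fell in the same libraries, and their part was not tested. Of 7 genes of IL-2 receptor signalling, 5 were higher and 1 lower on the deposited scale, and 1 higher and 4 lower after the centring. Il2ra and Stat5a had log2FC values of 0.61 each, which the centring took to 0.01 and 0.02, and Il2rg of 0.74, which stayed at 0.15.

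**Figure D5:**
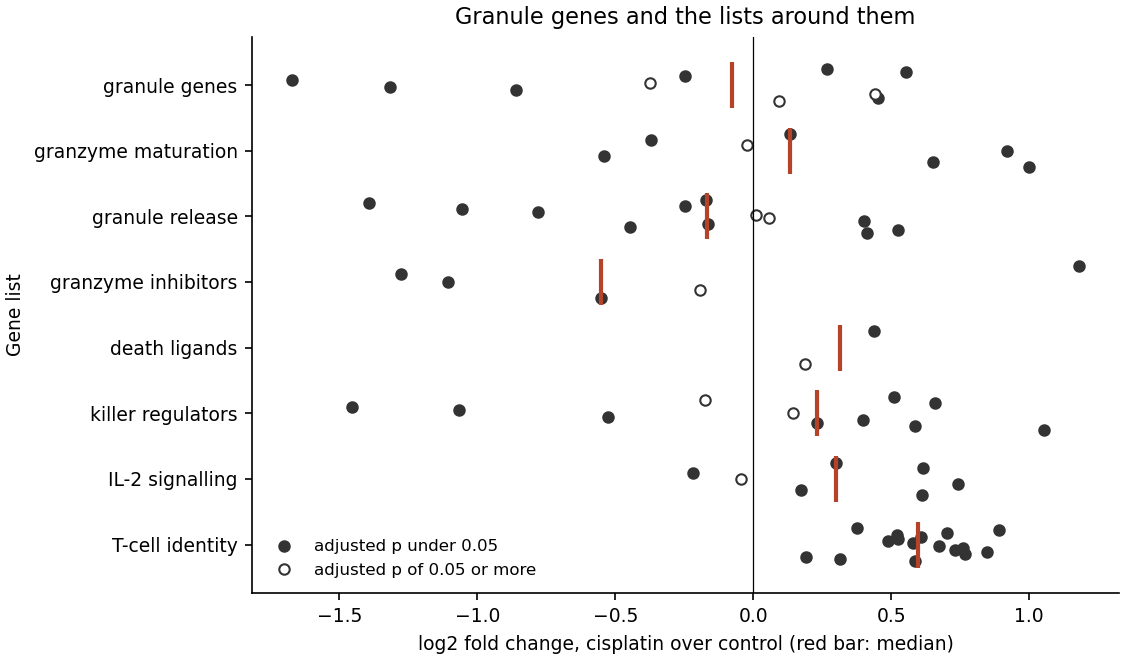
Log2 fold change (horizontal axis, FPKM as deposited) of the 10 granule genes and of the tested genes of 7 lists, with filled points for an adjusted p-value under 0.05 by limma and a red bar at each median. The granule genes spread from -1.67 to 0.55, while all 16 T-cell identity genes lie above 0, between 0.19 and 0.89.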

How the data were processed

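RNA of 6 T-cell co-culture libraries, 3 per group by the sample labels, was poly-A selected and sequenced. The authors deposited FPKM values for 54532 genes. The paper's methods name LifeScope for alignment and counting, whereas the submitters' processing notes name fastp, HISAT2 2.0.5, featureCounts 1.5.0-p3 and mm10, and the 2 sources were not reconciled. Whether reads were counted by strand, and how those matching several genes were treated, is not given in the sources used here. The table held 0 further columns of samples. The coordinates of all 10 members matched GENCODE M21 (GRCm38).

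From the deposited FPKM and gene lengths, whole reads were rebuilt (100% of values within 0.1 of a whole read). They gave 30606569 to 32169496 reads per library, and cover counting error only. Replicate pairs were not the same library deposited again (chi-square/df of 5.11 to 5.99 on rebuilt reads). The comparison of groups used limma 3.58.1 (lmFit and eBayes with trend, under R 4.3.3) on log2(FPKM + 0.1) for the 15874 genes averaging 0.5 FPKM or more, with Benjamini-Hochberg adjustment over all of them. A call needed an adjusted p-value below 0.05 and at least 2-fold change, as in the paper's methods. Fold changes on this scale understate those of low genes. Granzyme shares and ratios within a library were compared by two-sided exact permutation tests. Promoters came from RefSeq (GRCm38.p6), and identities from global alignments with biopython 1.88. Python 3.11.15, pandas 2.3.3 and scipy 1.17.1 were used, and matplotlib 3.10.9 drew the figures. Of these steps, the limma calls were tested on simulated counts.

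The members and gene lists were chosen with earlier results of these data known. The text names all members, genes of the lists, for Gzmb and Prf1 the 3 nearest profiles (Euclidean distance of centred log2 values, genes of at least 5 FPKM on average), and the neighbours of the granzyme cluster, which were added after the data were seen. The alternatives were pseudocounts of 1 and 0.01, other filters, centring on T-cell identity genes, median of ratios, quantile normalization, TPM, no trend, voom on rebuilt reads (10 or more in 3 or more libraries), omission of each replicate in turn, and a block for the replicate number.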

Additional observations from a re-analysis of the deposited data

How the results depend on the processing

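The count of members lower and at least 2-fold changed was 2 as reported, beside 12.8% of all tested genes. It was 1 with a pseudocount of 1. It was also 1 with genes of at least 5 FPKM on average, where Gzme, Gzmf and Gzmk were not tested. The shares over all tested genes were not computed under these alternatives. Centring on the T-cell identity genes took the counts past the adjusted p-value from 3 higher and 4 lower to 0 higher and 7 lower (over all tested genes 4.45% and 67.4%), took the count of those at least 2-fold lower from 2 to 3 (24.4% of all tested genes), and reversed the log2 fold changes of Gzma (-0.15), Gzmb (-0.50), Gzmk (-0.16), Srgn (-0.044), Nkg7 (-0.33), Unc13d (-0.072), Rab27a (-0.19), Tnfsf10 (-0.16), Fasl (-0.41), Tbx21 (-0.0098) and Runx3 (-0.37), since it subtracts the same amount from every gene. Of 167 recomputed member values under the alternatives, 153 kept direction and side of the threshold, 7 lost the threshold (all Prf1), 2 gained it (Gzmb with voom, Gzme after the centring) and 5 reversed. Over the alternatives, the log2 fold change of Gzmc ran from -1.46 to -0.78, of Gzmd from -1.91 to -1.14 and of Gzmf from -2.27 to -0.71. Quantile normalization moved the median of all tested genes to 0.16. Deviations of samples with the same replicate number had correlations of 0.023, -0.063 and -0.021. Samples with different numbers had correlations from -0.0605 to 0.0827. With deviations taken from means of 3 libraries, these values cannot tell whether the numbers pair the samples. With the replicate block, 3 members were higher and 4 lower at the adjusted p-value and 2 were called lower, the same counts as without it. The shares over all tested genes were not computed for this fit either, so these counts have no background beside them. From rebuilt reads, which are not divided by gene length, the cisplatin minus control difference in granzyme share was 3.67 percentage points for Gzma (5.07 from FPKM) and -3.93 for Gzmc (-5.47 from FPKM). With 3 libraries a group, the exact tests could not go below 0.1, and few reads limit Gzmf, Gzmk and Gzmg.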
